A study of Rattus norvegicus with 8 samples.

Results

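The nuclear receptors apart from the steroid, Rev-erb and Nur77 genes, together with the PGC-1, NCoA and NCoR coregulators, were followed in castrated rats given testosterone. The set was chosen by gene name and not by measured values, though earlier results of these data were known when it was chosen. It held every probe whose name in the array file was an Nr gene of the systematic series (without Nr3c1, Nr3c2, Nr1d1, Nr1d2 and Nr4a1), a named oestrogen, oestrogen-related, progesterone, vitamin D, thyroid hormone, PPAR, retinoic acid or retinoid X receptor, Ppargc1a or Ppargc1b, or a numbered Ncoa or Ncor. These were 62 probes of 47 genes, out of 30367 probes under 26276 names. Rarb and Nr2e3 had no probe under those names and were not analysed here.

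All RNA came from castrated adult male Wistar rats, 120 ± 12 days old per the labels. The treated rats had received testosterone propionate, an injectable ester of the androgen testosterone, once at 4 mg/kg under the skin in 1 mL/kg corn oil, 8 h or 24 h before; the controls are labelled only as control castrated animals, and an oil injection is not mentioned for them. RNA of treated and control rats was hybridised together on 2-colour arrays, with 4 arrays per time. The treated RNA carried Cy3 on the arrays of replicates 1 and 2 and Cy5 on those of replicates 3 and 4 at 8 h, and the reverse at 24 h. The title of the study names muscle atrophy, but the muscle is not named, and the labels do not say whether an array held 1 animal or a pool, or whether the control RNA was the same at both times. The p-values therefore measure the spread between arrays, part of which may be technical. Of the 12 muscle fibre markers checked, 11 were well above background in all 16 RNA samples, and all 6 markers of epithelium and male accessory gland were below it in all 16.

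Nuclear receptors are transcription factors that bind hormones, fatty acids, oxysterols, bile acids or retinoids, or have no known ligand, and many pair with a retinoid X receptor on DNA. Bound receptors exchange corepressors such as NCoR1 for coactivators such as the NCoA proteins and PGC-1. In skeletal muscle, PGC-1α, the ERR receptors, PPARδ and the thyroid hormone receptors are known for their part in mitochondrial and fatty acid oxidation genes and in fibre type. The androgen receptor itself uses several of the same NCoA and NCoR proteins.

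In 7 genes one probe of a pair could be tested and the other could not, so the level of the receptor read from the array depended on the probe. The last 30 bases of the 60-base probes of the most divergent pairs are given here, 5′ to 3′, to show what was read; capitals mark AATAAA, the usual polyadenylation hexamer, which was searched on the printed strand only.
Nr1h4, well above background in 16 of 16 RNA samples: aatcaattgttacttcaattttgtcaactg
Nr1h4, in 0 of 16: gagacAATAAActgaacgtaatgccaagag
Nr5a1, in 16 of 16: tgtgtcctggggccttttgaggagccactg
Nr5a1, in 0 of 16: attgagatgctgcaggccaagcagacttga
Rarg, in 16 of 16: tttttgcaaAATAAAgtgatggaaactcaa
Rarg, in 5 of 16: tcatcaacaaggtaaccaggaatcggtgcc
Nr2f6, in 16 of 16: aatcatggccaacAATAAAgatattcccat
Nr2f6, in 3 of 16: actgtcgcctcaagaagtgcttccgggtgg
Nr4a2, in 11 of 16: tctcccatgcacgtcaaagaactggaaaga
Nr4a2, in 0 of 16: gctttggggaatggattgattccattgttg
Ncoa5, in 16 of 16: ggtccaatgtccctagtccccccttctctg
Ncoa5, in 2 of 16: agttggatatgtcctcatacagaagagcat

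On the rn4 positions of the array file, the brighter probe of Nr1h4, the bile acid receptor FXR, lay 228 bases upstream of the dim one along the transcript's strand (chr7:26189988-26190047 against chr7:26189760-26189819, minus strand). The brighter probe of Nr5a1, the steroidogenic factor SF-1 of adrenal and gonad, lay 7784 bases upstream (chr3:18507346-18507405 against chr3:18499562-18499621, minus strand), and the brighter probe of Ncoa5 830 bases upstream (chr3:156039735-156039794, minus strand). For Rarg, a retinoic acid receptor, Nr2f6, an orphan receptor also called EAR2, and Nr4a2, the orphan receptor NURR1, the brighter probe was the downstream one, by 5657, 4373 and 518 bases. Ppard, encoding PPARδ, had a probe in 8 of 16 samples 493 bases upstream of one in 4 of 16. So the order along the gene went both ways, and 4 of the 7 genes were read better from the upstream probe. The hexamer AATAAA was held by 8.39% of all gene probes. Over all gene probes, 47.4% of the 2547 with the hexamer and 26% of the 27820 without it were well above background in 16 of 16 samples; among the members these were 3 of 6 and 13 of 56. What the dim or bright probe of a pair reads was not tested, and a value below is that of the tested probe alone.

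A probe counted as well above background in an RNA sample when most of its usable spots, or as many as not, carried that flag of the scanner software. Of the 62 member probes, 16 reached this in all 16 RNA samples (25.8%, against 27.8% of all probes), 19 in some and 27 in none (43.5%, against 48.6%). The receptors and coregulators were thus read about as often as the array as a whole. Among those well above background throughout were Esrra (ERRα), Nr1h2 and Nr1h3 (the oxysterol receptors LXRβ and LXRα), Pparg (the fat cell receptor PPARγ), Rxra and Rxrg (retinoid X receptors), Nr2f2 (the orphan receptor COUP-TFII), the coactivators Ncoa1, Ncoa2 and Ncoa5, the corepressor Ncor1, and the brighter probes of Nr1h4, Nr2f6, Nr5a1 and Rarg.

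For 17 genes, each probe was below that mark in all 16 RNA samples. These were Ppargc1a (PGC-1α), Ppara (PPARα), Esrrb and Esrrg (ERRβ and ERRγ), Esr1 (oestrogen receptor α), Pgr (progesterone receptor), Thrb (thyroid hormone receptor β), Nr0b1 (DAX1), Nr0b2 (SHP), Nr1h5, Nr1i2 (the xenobiotic receptor PXR), Nr1i3 (its relative CAR), Nr2e1 (TLX), Nr2f1 (COUP-TFI), Nr5a2 (LRH1), Nr6a1 (GCNF) and Ncoa7. Ppargc1b (PGC-1β) had 1 control array at 8 h and 1 treated array at 24 h above the mark, Ncoa3 (SRC-3) 1 control and 1 treated array at 24 h, and Nr4a3 (NOR1) 1 treated array at each time. Esr2, Vdr, Nr2c1 and Nr2c2 had 1 or 2 of 16 samples. For all these genes no ratio is given: the probes were not well above background, and an array that does not read a transcript does not show that it is absent. The remaining probes were tested if at least 3 of 4 arrays of a group read them, which left 24 probes of 23 genes (38.7% of the member probes, against 39.7% of all probes).

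**Figure D1:**
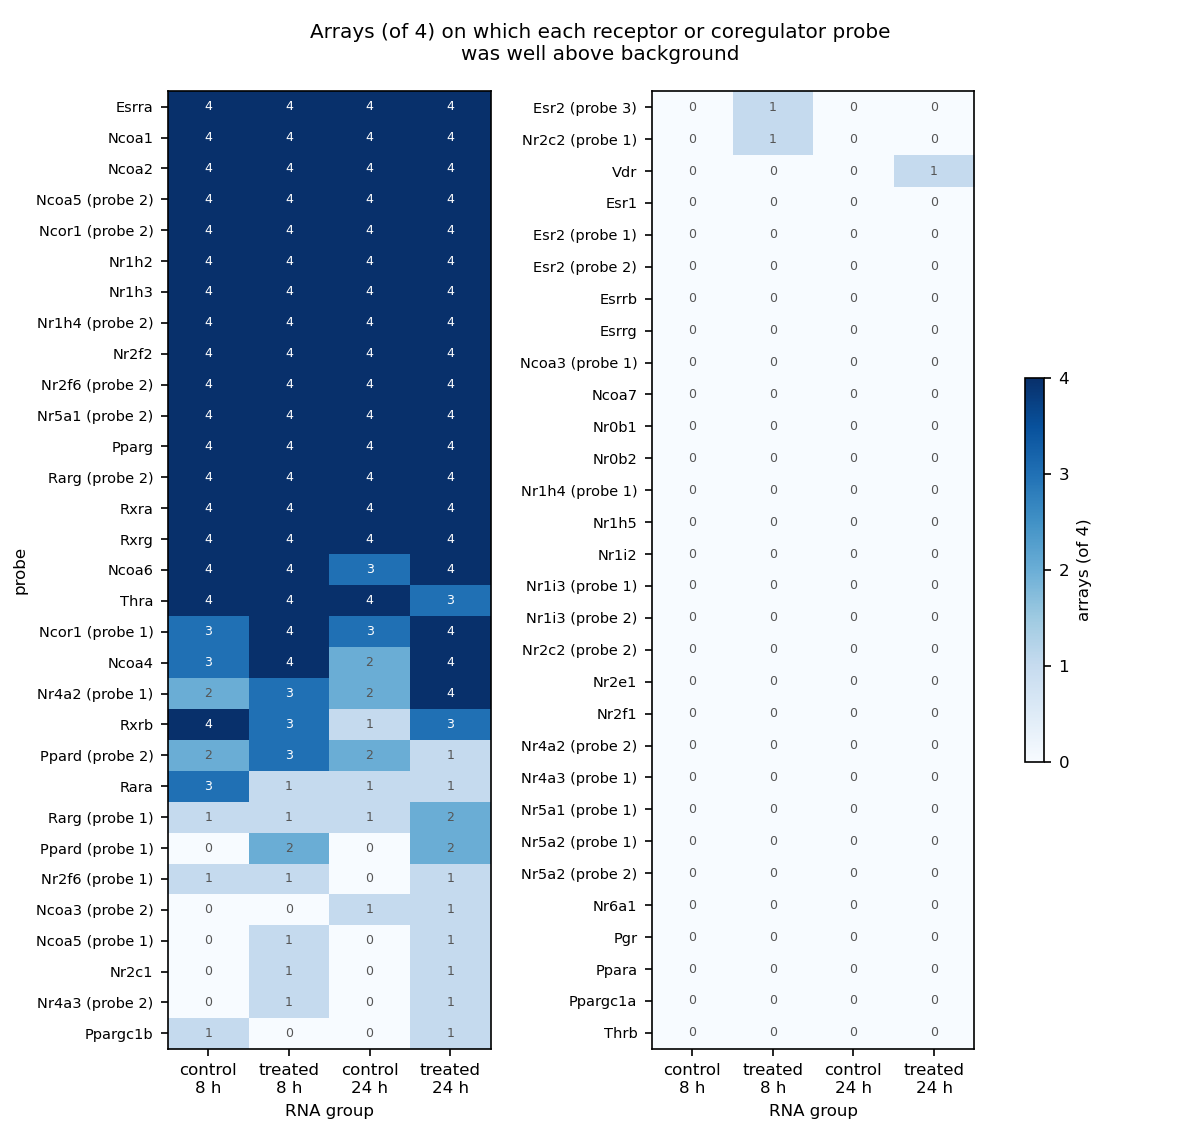
Number of arrays (0 to 4, printed and shaded) on which 61 of the 62 probes (vertical axis; several probes of a gene are numbered) were well above background in the control and treated RNA of each time (horizontal axis). The 15 probes at the top left read 4 in every group, and the 27 probes at the bottom right read 0.

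At 24 h none of the 24 tested probes passed an adjusted p of 0.05 (limma, Benjamini-Hochberg over 12053 probes), where 6.91% of all tested probes did. At 8 h none passed either, against 0.0249% of all, and none passed for the difference between 24 h and 8 h, against 1.3%. The lowest adjusted p in limma were 0.0732 at 24 h and 0.134 between times, both for Ncoa1, and 0.27 at 8 h for Ncoa5. Before adjustment, limma gave a p under 0.05 for 3 of 24 probes at 24 h (12.5%, against 21.9% of all), 3 at 8 h (12.5%, against 16.9%) and 1 between times (4.17%, against 16%).

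The members' ratios also lay close to 0. All ratios are log2 of treated over control. The 24 h values ran from -0.24 to 0.26, with a median size regardless of sign of 0.07, against 0.10 over all tested probes. At 8 h they ran from -0.33 to 0.20 with a median size of 0.06, again against 0.10. Signs were split, with 12 higher and 12 lower at 24 h and 13 higher and 11 lower at 8 h. Under median centring of the arrays in place of loess, which moved the median of all tested probes to 0.15 at 24 h, 20 of the 24 were above 0 and their median was 0.16. The 4 arrays of a time all had the same sign for 3 of 24 probes at 24 h (12.5%, against 28.9% of all) and for 4 of 24 at 8 h (16.7%, against 21.4%).

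How small a change these arrays bound depended on the signal correction. The background model used here adds 50 intensity units to each signal and so pulls the ratios of dim probes towards 0. With it, the 95% intervals of all 24 probes lay within a 1.5-fold change in either direction at both times. So did those of 90.7% of all tested probes at 24 h and 92.2% at 8 h. With the scanner software's processed signals, which carry no such addition, the intervals of 8 of 24 lay within 1.5-fold at each time, and those of 21 at 24 h and 22 at 8 h within 2-fold. The fitted values then ran from -0.71 to 0.45 at 24 h and from -0.81 to 0.52 at 8 h. No member passed with the processed signals.

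**Figure D2:**
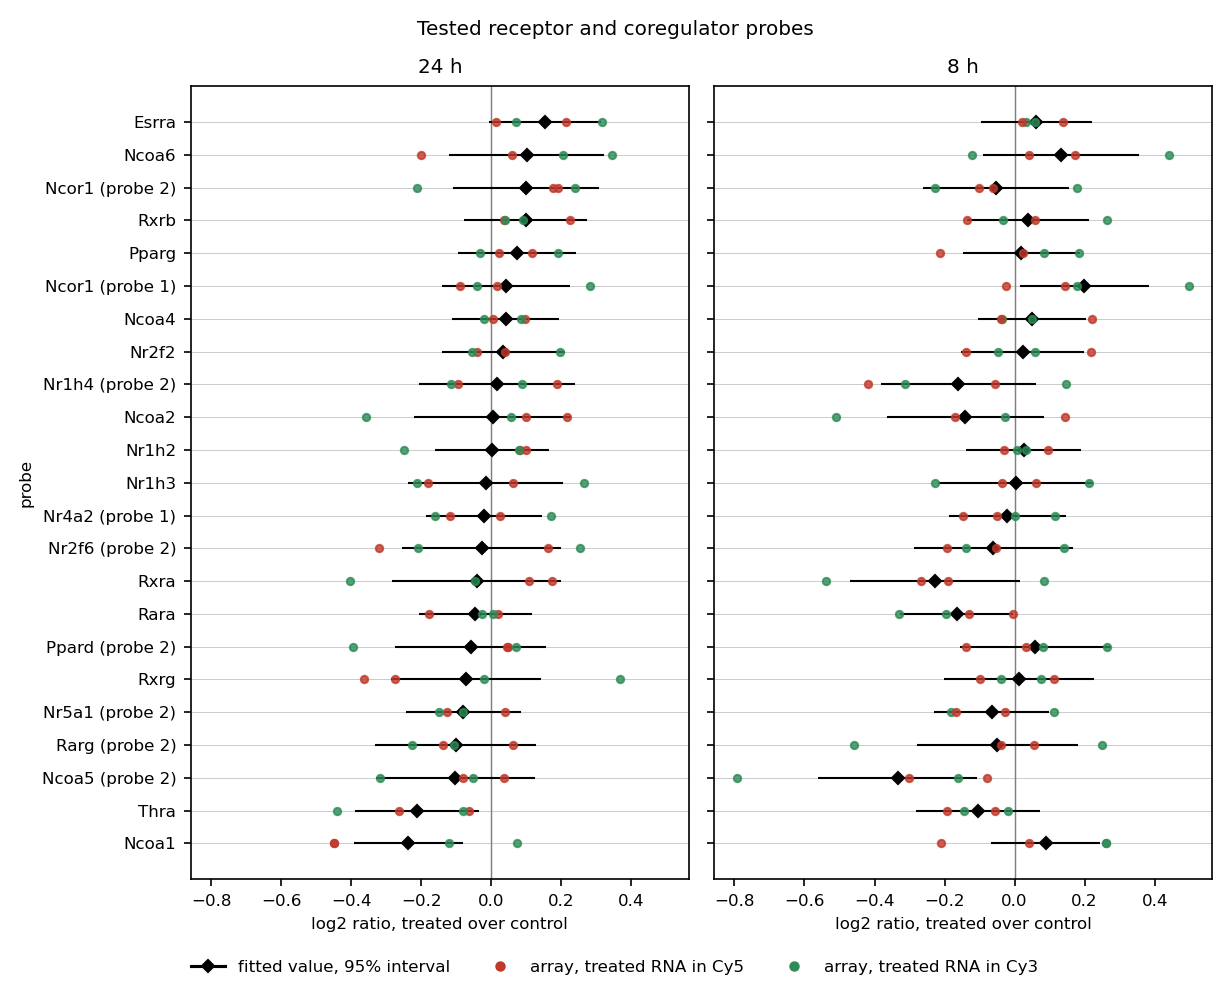
Log2 ratio of treated over control (horizontal axis) of 23 of the 24 tested probes (vertical axis) at 24 h and 8 h; diamonds and bars are fitted values with 95% intervals, and points are single arrays coloured by the dye of the treated RNA. Fitted values lie between -0.24 and 0.15 at 24 h and between -0.33 and 0.20 at 8 h, and for most probes the arrays lie on both sides of 0.

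**Figure D3:**
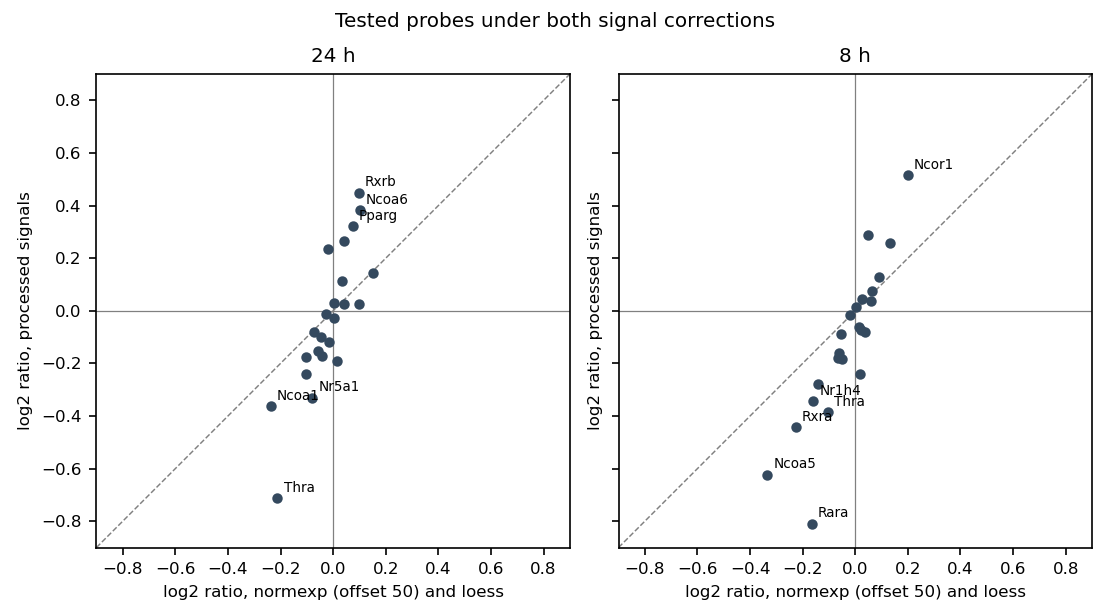
Fitted log2 ratios of 23 of the 24 tested probes with the background model and loess (horizontal axis) against those from the processed signals (vertical axis), at 24 h and 8 h; the dashed line marks equal values. Probes with a processed ratio over 0.3 in size are named, with Thra at -0.71 at 24 h and Rara at -0.81 at 8 h.

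Among the thyroid hormone receptors, Thra (chr10:87537328-87537387, plus strand), which encodes TRα, the main thyroid hormone receptor of muscle, had one of the lowest ratios. On the arrays of replicates 1 to 4 at 24 h it stood at -0.26, -0.06, -0.08 and -0.44. All 4 arrays were below 0, and the fitted ratio was -0.21 (SD 0.18, n = 4 arrays; 95% interval -0.39 to -0.04), with an adjusted p of 0.149 in limma, so it did not pass. At 8 h its arrays were also all below 0, at -0.14, -0.02, -0.19 and -0.06, and the fitted ratio was -0.10 (adjusted p = 0.508, limma). From the processed signals the Thra ratio at 24 h was -0.71 (95% interval -1.22 to -0.21; adjusted p = 0.108, limma), with the array of replicate 4 at -1.65 and the others between -0.56 and -0.19. Over all alternatives tried, the adjusted p of Thra at 24 h ran from 0.0915 to 0.497.

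The retinoid receptors showed no shared direction. Rara, retinoic acid receptor α, was read on 3 of 4 control arrays at 8 h and on 1 of 4 in each other group, so it was tested only through the group in which it was brightest. Its 8 h ratios were -0.20, -0.33, -0.13 and -0.01, with a fitted value of -0.17 (adjusted p = 0.29, limma), and its fitted value at 24 h was -0.05. The processed signals gave -0.81 at 8 h, with arrays at -1.20, -2.08, -0.74 and 0.78, which shows how widely this dim probe varied.

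Rxra, the retinoid X receptor α that serves as partner of PPAR, LXR and thyroid hormone receptors, read -0.54, 0.09, -0.19 and -0.27 at 8 h. The array of replicate 2 alone was above 0, and the fitted value was -0.23 (SD 0.26, n = 4 arrays; adjusted p = 0.315, limma). Without that array the Rxra value was -0.39 and passed (adjusted p = 0.0239, limma), as did 10.8% of all tested probes. Without the 8 h array of replicate 1, no member had an adjusted p under 0.912 at 8 h in limma. Across alternatives the limma adjusted p of Rxra at 8 h ran from 0.0239 to 0.917. At 24 h Rxra read 0.17 and 0.11 where the treated RNA carried Cy5 and -0.40 and -0.05 where it carried Cy3.

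Rxrg, the retinoid X receptor γ of skeletal muscle, split the same arrays the other way at 24 h, with -0.28 and -0.36 in Cy5 and 0.37 and -0.02 in Cy3, and a fitted value of -0.07. Rxrb was above 0 on all 4 arrays at 24 h, at 0.23, 0.04, 0.04 and 0.09, with a fitted value of 0.10 (adjusted p = 0.536, limma). At that time this dim probe was read on 1 of 4 control arrays and 3 of 4 treated arrays. The processed signals gave 0.45 at 24 h, with arrays between -0.01 and 1.05. The tested probe of Rarg stood at -0.10 at 24 h and -0.05 at 8 h.

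Of the PGC-1, ERR and PPAR group, the genes best known for oxidative metabolism in muscle, 3 of 8 members were tested. Esrra (chr1:209587731-209587790, minus strand), encoding ERRα, a receptor without a known natural ligand that works with PGC-1, read 0.01, 0.21, 0.32 and 0.07 at 24 h. It was above 0 on all 4 arrays, and also at 8 h, where it read 0.03, 0.06, 0.02 and 0.14. The fitted values were 0.15 at 24 h (SD 0.14, n = 4 arrays; 95% interval -0.01 to 0.31; adjusted p = 0.247, limma) and 0.06 at 8 h, and neither passed.

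Pparg stood at 0.07 at 24 h (95% interval -0.09 to 0.24), with arrays at 0.12, 0.02, 0.19 and -0.03. Adipocyte markers on the same arrays had medians between 0.01 and 0.54 at 24 h, all above 0, with 4 of 8 markers read in all 16 samples and Cidec and Lep in none. Of 5 tested, 1 passed higher, Fabp4 (0.43), and 4 did not pass, with Lpl (-0.03) below 0. The part of these markers in the Pparg value was not tested. In RNA of a whole tissue, fewer cells of a type and less RNA per cell cannot be told apart. The tested probe of Ppard was read on 3 of 4 treated arrays at 8 h. In the control groups it was read on 2 of 4 arrays at each time, and in treated RNA at 24 h on 1 of 4. It was thus tested only through the group in which it was read most often. At 24 h it read 0.04, 0.05, -0.40 and 0.07, with the array of replicate 3 apart, and the fitted value was -0.06. From the processed signals the 24 h arrays of this dim probe lay between -1.46 and 1.01.

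The oxysterol and bile acid receptors did not pass at either time. Nr1h3, LXRα, read 0.06, -0.18, 0.26 and -0.21 at 24 h, on both sides of 0, with a fitted value of -0.02 (95% interval -0.24 to 0.20). Its paralogue Nr1h2, LXRβ, stood at 0.10, 0.08, 0.08 and -0.25, where the array of replicate 4 alone was below 0, and was fitted at 0.00. The tested probe of the bile acid receptor Nr1h4 was fitted at 0.02 at 24 h and -0.16 at 8 h (adjusted p = 0.411, limma).

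The orphan receptors had small ratios on both sides of 0. Nr2f2 (chr1:125280995-125281054, minus strand), encoding COUP-TFII, read 0.04, -0.04, 0.19 and -0.05 at 24 h, and its fitted values were 0.03 at 24 h and 0.02 at 8 h. The tested probe of Nr4a2, a member of the NR4A family of early response receptors, was fitted at -0.02 at both times, with arrays between -0.16 and 0.17 at 24 h. The tested probes of Nr2f6 and Nr5a1 stood at -0.03 and -0.08 at 24 h. For Nr5a1 3 of 4 arrays were below 0, and its limma adjusted p was 0.595.

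The coactivator Ncoa1, SRC-1 (chr6:27224419-27224478, minus strand), a histone acetyltransferase recruited by many receptors including the androgen receptor, had the lowest p of all members. At 24 h it read -0.45 and -0.45 on the arrays with treated RNA in Cy5 and -0.12 and 0.07 on those in Cy3. The arrays in Cy5 lay well below those in Cy3, with means of -0.45 and -0.02. The fitted ratio, in which a dye coefficient takes up that split, was -0.24 (SD 0.26, n = 4 arrays; 95% interval -0.39 to -0.08), with an adjusted p of 0.0732 in limma.

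At 8 h Ncoa1 was split in the same sense, with -0.21 and 0.04 in Cy5 against 0.26 and 0.26 in Cy3, and was fitted at 0.09. Its difference between 24 h and 8 h was -0.33 (95% interval -0.55 to -0.11; adjusted p = 0.134, limma). With weights on the arrays the 24 h ratio of Ncoa1 passed at -0.24 (adjusted p = 0.034, limma). Across all alternatives the 24 h ratio of Ncoa1 ran from -0.36 with the processed signals to 0.01 under median centring. Its limma adjusted p ran from 0.034 to 0.954, the latter also under median centring. Without a dye coefficient no member had a limma adjusted p under 0.15 at 24 h.

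With the background model the other coactivators showed smaller values at 24 h. Ncoa2, SRC-2, was fitted at 0.00 with arrays at 0.10, 0.22, -0.36 and 0.06. Ncoa6 was fitted at 0.10 and Ncoa4, also known as ARA70 and as the ferritin receptor of autophagy, at 0.04, and neither passed.

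Ncoa5, a coactivator first described with the oestrogen receptors, had the ratio farthest from 0 at 8 h with the background model (with the processed signals Rara lay farther, at -0.81 against -0.62 for Ncoa5). Its tested probe read -0.79, -0.16, -0.08 and -0.30, below 0 on all 4 arrays, with the array of replicate 1 the farthest. The fitted ratio was -0.33 (SD 0.32, n = 4 arrays; 95% interval -0.56 to -0.11; adjusted p = 0.27, limma). Without the array of replicate 2 the Ncoa5 ratio was -0.45 and passed (adjusted p = 0.0249, limma), as did 10.8% of all tested probes. Without the array of replicate 1 the Ncoa5 ratio was -0.19. Across alternatives its limma adjusted p at 8 h ran from 0.0249 to 0.912. At 24 h Ncoa5 stood at -0.10.

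The corepressor Ncor1 is a scaffold for histone deacetylases. Its gene had a pair of tested probes with starts 26783 bases apart on the genome. At 8 h the downstream one (chr10:48480897-48480956, minus strand) was fitted at 0.20 (adjusted p = 0.281, limma) and the upstream one (chr10:48507680-48507739, minus strand) at -0.05, so the probes of this gene had opposite signs. At 24 h both Ncor1 probes were above 0, at 0.04 and 0.10. The upstream probe read 0.18, 0.19, -0.21 and 0.24, where the array of replicate 3 alone was below 0.

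**Figure D4:**
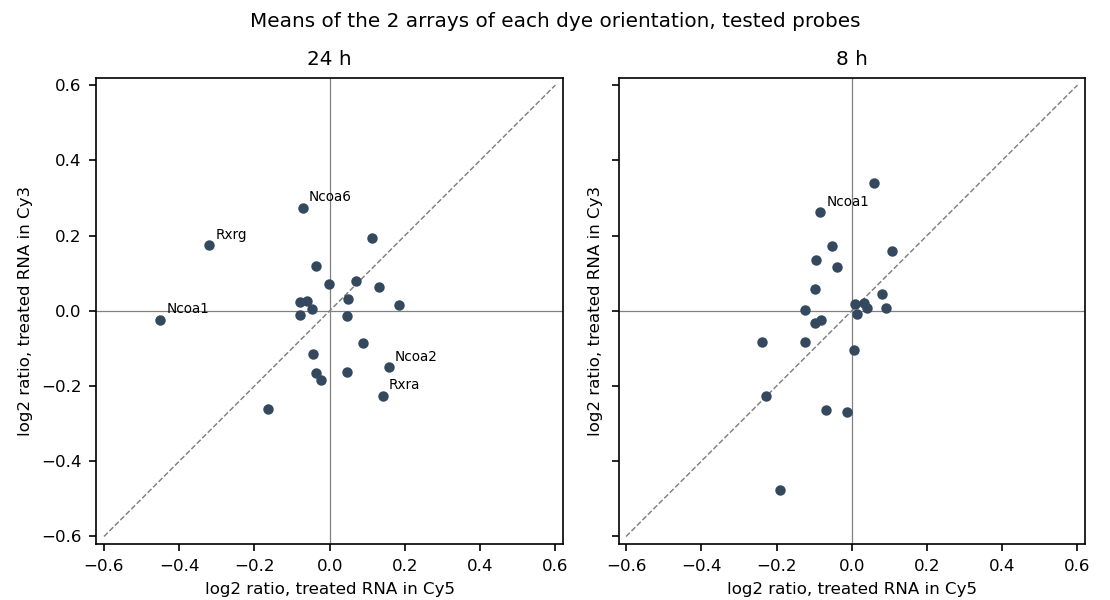
For 23 of the 24 tested probes, the mean log2 ratio of the 2 arrays with treated RNA in Cy5 (horizontal axis) against that of the 2 arrays with treated RNA in Cy3 (vertical axis), at 24 h and 8 h; the dashed line marks equal values. Probes whose means differ by over 0.3 are named, such as Ncoa1 (-0.45 and -0.02) and Rxrg (-0.32 and 0.17) at 24 h.

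Lists of genes that these receptors are known to act on, or that handle their ligands, were read beside the receptors at 24 h. Of all 10867 genes tested by their brightest probe, 7.1% passed (4.18% higher, 2.93% lower). The lists held 5 to 19 tested genes each, and whether they passed more often than this background was not tested. The changes of Ucp3 and Srebf1 were known when the lists were chosen. Of 14 tested PGC-1 and ERR target genes, 1 was higher and 13 did not pass, with a median of -0.02. The one was Vegfa, the vascular growth factor, at 0.98, 0.68, 0.95 and 0.58 on the 4 arrays (fitted 0.80, adjusted p = 0.00203, limma). Its other tested probes stood at 0.73, which passed (adjusted p = 0.00272, limma), and 0.28, which did not (adjusted p = 0.104, limma). The citrate cycle, respiratory chain and cytochrome c genes of that list, such as Cs, Cox5b and Cycs, were among those that did not pass.

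Of 15 tested PPAR target genes, 1 was lower: Ucp3, the mitochondrial uncoupling protein of muscle, at -2.04, -2.19, -1.90 and -1.76 (fitted -1.97; adjusted p = 4.03e-05, limma). The other 14, which include Pdk4, Cpt1b, Cd36 and Plin2, did not pass, and the median of the list was 0.00. Muscle fibre markers had array medians of -0.21, -0.25, -0.52 and -0.26 on the same arrays; of 12 tested, 11 were read in all 16 samples and none was at 0 of 16, and Acta1 (-0.44) and Actn3 (-0.55) passed lower and Myh1 (1.33) higher. Their part in the Ucp3 value was not tested. Of 10 tested LXR target genes, 1 was higher: Srebf1, a transcription factor of lipid synthesis, at 0.79, 0.72, 0.63 and 1.15 (fitted 0.82; adjusted p = 0.00053, limma). The other 9, among them the cholesterol exporters Abca1 and Abcg1 and the ligase Mylip, did not pass.

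Of 8 tested thyroid hormone genes, 1 was higher. This was Crym, a binding protein of thyroid hormone in the cytosol, at 0.43, 0.42, 0.44 and 0.23 (fitted 0.38; adjusted p = 0.0205, limma). Klf9, a transcription factor gene that thyroid hormone and glucocorticoids induce, read -0.51, -0.55, -0.41 and -0.09 at 24 h (fitted -0.39; adjusted p = 0.0513, limma), which did not pass. Across alternatives that Klf9 value ran from -0.53 to -0.06, the latter under median centring, with adjusted p from 0.00924 to 0.866, and it passed in 7 of 18. Klf9 was higher at 8 h in Cy3 (0.82 and 0.78) than in Cy5 (-0.24 and 0.11), and its difference between times was -0.76 (adjusted p = 0.0397, limma).

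Of 11 tested genes of retinoid handling, 2 were higher and 1 was lower. Fabp5, a carrier of fatty acids and retinoic acid, was fitted at 0.53 (arrays 0.71, 0.23, 0.80 and 0.37; adjusted p = 0.0177, limma), and Tgm2, a transglutaminase that retinoic acid induces, at 0.44 (arrays 0.34, 0.55, 0.64 and 0.22; adjusted p = 0.0251, limma). Macrophage markers had array medians between 0.20 and 0.54 at 24 h, with 8 of 10 read in all 16 samples and Ptprc and Mrc1 in none. Of the 8 tested, 3 passed higher (C1qa, C1qc and Cd163) and 5 did not pass, with Itgam (-0.10) and Cd68 (-0.02) below 0. The part of these markers in the Tgm2 and Fabp5 values was not tested.

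Of 19 other tested coregulators 1 was lower, Brd8, a bromodomain protein, at -0.63, -0.31, -0.54 and -0.26 (fitted -0.43, adjusted p = 0.0315, limma). Its other tested probe stood at -0.14 and did not pass (adjusted p = 0.353, limma). The acetyltransferases Ep300 and Crebbp, the mediator subunit Med1 and the deacetylase Hdac1 did not pass. None of 5 tested enzymes of vitamin D and sex steroid metabolism passed, and the smallest p belonged to Sts, steroid sulfatase, at -0.17 (adjusted p = 0.175, limma). At 8 h no gene of these 7 lists passed, against 0.0276% of all genes, and between times Srebf1, Ucp3 and Klf9 did, against 1.35%.

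Under the alternatives the 24 h calls of Vegfa, Ucp3 and Srebf1 all held, and those of the other genes named were less firm. Fabp5 no longer passed without the 24 h array of replicate 1 (0.47) or 3 (0.40), and Crym and Tgm2 not without that of replicate 1, 2 or 3 (0.35 to 0.37 for Crym, 0.36 to 0.47 for Tgm2). Brd8 did not pass without the 24 h array of replicate 1 (-0.34), 2 (-0.47) or 3 (-0.41), or the 8 h array of replicate 3 or 4 (-0.43). The Klf9 difference between times did not pass without any of the 24 h arrays (-0.82 to -0.64) or without the 8 h array of replicate 1 (-0.69) or 4 (-0.75). Without a dye coefficient the Klf9 difference (-0.76) did not pass. With the processed signals Brd8 (-0.65), Fabp5 (0.79) and the Klf9 difference (-0.96) did not pass. Under median centring Brd8 (-0.24) and the differences between times of Srebf1 (1.10), Ucp3 (-1.33) and Klf9 (-0.79) did not pass.

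**Figure D5:**
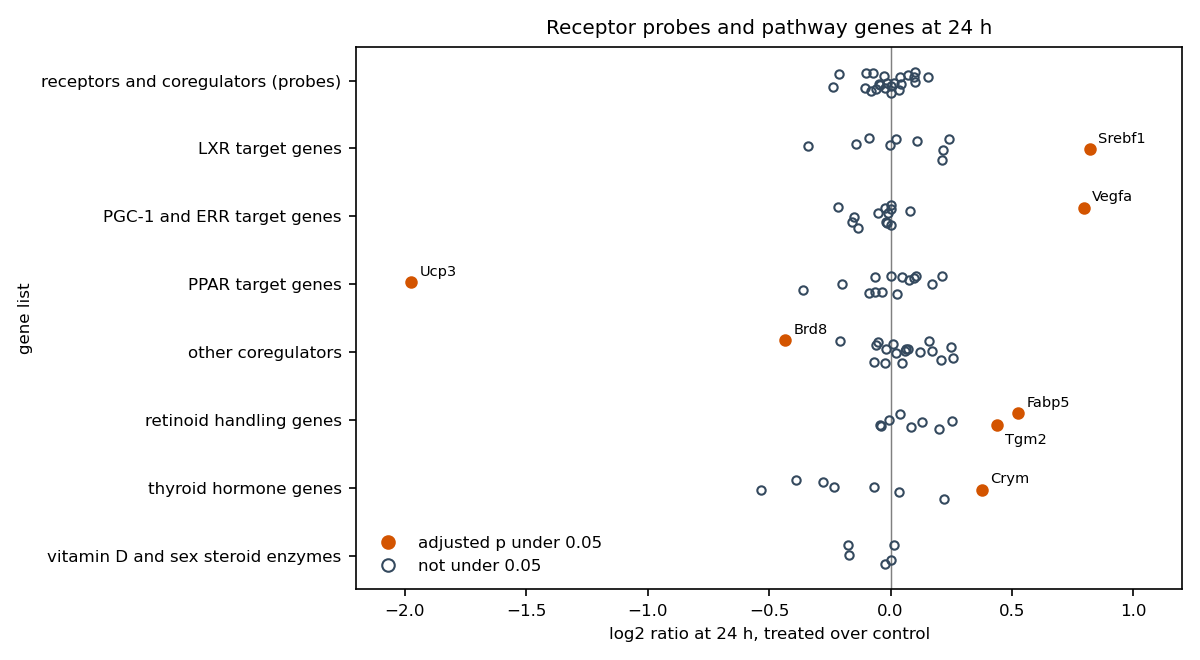
Fitted log2 ratios at 24 h (horizontal axis) of 23 of the 24 tested receptor and coregulator probes (top row) and of 81 of the 82 tested genes of 7 pathway lists (other rows); filled points passed an adjusted p of 0.05 and are named. No point of the top row is filled. In the other rows, Ucp3 lies at -1.97, Srebf1 at 0.82 and Vegfa at 0.80.

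Over the whole array, 833 of 12053 tested probes passed at 24 h, 3 at 8 h and 157 between times. The 8 h array of replicate 1 had the widest log2 ratios (SD 0.44, against 0.18 to 0.20 on the other 8 h arrays), and the 8 h array of replicate 2 correlated with the other 8 h arrays at 0.27, -0.12 and -0.04 over all tested probes. Without that array of replicate 2, 1296 probes (10.8%) passed at 8 h, with 2 members among them, Ncoa5 and Rxra. The macrophage medians ran from -0.75 to -0.14 at 8 h, with the array of replicate 1 lowest. The share of spots well above background ran from 34.8% to 48.9% over dyes and arrays. The arrays of 8 h and those of 24 h were on separate slides, and an effect of the slide cannot be told apart from one of the time.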

How the data were processed

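The deposited scanner files hold, per the file headers, linear intensities (mean spot signals and local backgrounds, not normalized), processed intensities and a log10 ratio of red over green. The submitters' processing notes name version 9.5.3.1 of Agilent Feature Extraction. The labels' protocols name Trizol extraction and Quick Amp labelling. A deposited table of log2 ratios by the authors equals the log2 ratio of the processed signals, treated over control, within 1.35e-05, which settles its scale and direction; column medians ran from -0.144 to 0.0896. Probe positions are those of the files (rn4); whether a probe lies in an exon or untranslated region was not analysed here.

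Here, signals were corrected with normexp (offset 50) and loess in R 4.3.3 with limma 3.58.1. Flagged outlier spots (731 to 927 of 42877 per array) and control spots were left out, and ratios were turned to treated over control. A probe was kept if well above background on 3 of 4 arrays of at least 1 RNA group and measured on at least 2 arrays of each time. A model with a coefficient per time and a dye coefficient was fitted to all 8 arrays (lmFit, eBayes), two-sided, with Benjamini-Hochberg adjustment over 12053 probes and a threshold of 0.05. Genes of pathway and marker lists are shown by their brightest kept probe. The fit was run on simulated data in which the noise of a probe was independent and equally wide on all 8 arrays. The real arrays differed in spread, so that run does not show how the fit handles such arrays. The number of arrays limits the precision.

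The members, lists, tests and alternatives were chosen with earlier results of these data known; the changes of Ucp3 and Srebf1 had been seen in them. Named members are the 10 with the smallest p at 24 h, the 4 at 8 h and 18 genes listed by name; of each list, up to 4 genes that passed at 24 h or the 1 with the smallest p. Klf9 was added for its difference between times, and other genes that did not pass are named as examples, both after their values were seen. Some genes that meet this rule are not reported here. Replicate numbers were not used to pair the arrays in this model, and whether they do was not settled.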

Additional observations from a re-analysis of the deposited data

Results flagged for a closer look

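Among 48 sets of 4 array values (24 member probes at each time), 3 held 1 array set apart from the others beyond Dixon's critical value, where chance marks about 1 in 20 sets. They were Nr1h2 at 24 h, with replicate 4 at -0.25 and the others between 0.08 and 0.10, Ppard at 24 h, with replicate 3 at -0.40 and the others between 0.04 and 0.07, and the upstream probe of Ncor1 at 24 h, with replicate 3 at -0.21 and the others between 0.18 and 0.24. Of the pathway genes named, 3 had ratios that differed between 24 h and 8 h by limma's test of the difference: Srebf1 by 1.05, Ucp3 by -1.30 and Klf9 by -0.76, each with the slide of its time.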

How the results depend on the processing

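No member passed in any comparison under the processed signals, the deposited table (which gave the same values), median centring, no filter or a strict filter on dim probes, no dye coefficient, or 1 probe per gene. With array weights 1 of 24 member probes passed at 24 h (Ncoa1), against 13.4% of all probes, and with each time fitted alone 1 of 24, against 14.1%; the cause was not tested. Leaving out 1 array in turn gave 0 members at 24 h and between times, and 0 to 2 at 8 h, where the 2 (Ncoa5 and Rxra) appeared without replicate 2 at 8 h, against 10.8% of all probes. Between the arrays of the same replicate number at 8 h and 24 h, deviations correlated at -0.257, 0.174, -0.166 and -0.0697. The dye effect was left in these deviations and the dyes were reversed between times. The correlations therefore cannot tell whether the replicate numbers paired the arrays. With the replicate number as a block 0 members passed in each comparison, while 926 of all probes passed at 24 h, 8 at 8 h and 341 between times. With the block, Brd8 (-0.43) and Tgm2 (0.44) no longer passed at 24 h and Klf9 (-0.39) did.

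Signs turned by more than the spread between arrays with the processed signals and, alike, the deposited table for Nr4a2 (0.23) and Nr1h4 (-0.19) at 24 h and Pparg (-0.24) at 8 h. Under median centring, which moved the median of all probes to 0.15 at 24 h and 0.12 at 8 h, they turned for Ncoa5 (0.10), Rarg (0.064) and the pathway gene Sts (0.045) at 24 h, and for Nr2f6 (0.15), Nr5a1 (0.083) and the upstream probe of Ncor1 (0.13) at 8 h; the cause was not tested. Of 846 member values under alternatives, 801 kept to the fitted value within the spread between arrays. Another 30 moved beyond it, 11 turned sign by more than that spread and 4 came to pass. Smaller changes of sign are counted among the 801. Several alternatives could not change a member's fitted ratio in this dye-balanced design. Among these were the filters, the model without a dye coefficient, and leaving out an array of the other time. The processed signals and the deposited table gave the same values and were both counted. The 801 therefore do not measure how firm the ratios are.

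The count of all probes that passed at 24 h was 436 under median centring, 1617 with array weights and 1703 with each time fitted alone, and 209 to 1325 when 1 array was left out, lowest without replicate 1 at 24 h and highest without replicate 1 at 8 h. At 8 h it was 0 under median centring and with that time fitted alone, 1 without a dye coefficient, and 0 to 1296 with 1 array left out. Between times it was 0 under median centring, 83 with the processed signals, 104 without a dye coefficient, 305 with array weights, and 33 to 638 with 1 array left out.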
